A study of Mus musculus with 491 samples.

Results

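The genes described here are the 5 Hox genes of the hindbrain code, Hoxb1, Hoxa2, Hoxb2, Hoxa3 and Hoxb3, and Egr2, a zinc finger factor of the rhombomeres. They were taken by name, so that the 6 members stand among 19494 genes measured in every single cell of the study. The cells were tdTomato-positive and came from otic vesicles and surrounding periotic tissue of E10.5 mouse embryos of the genotype Pax2-Cre/+;Ai14-tdTomato/+. Every cell carried the same alleles, no group was treated, and the Cre reporter marks cells that have used the Pax2-Cre transgene together with their descendants. Each library is 1 sorted cell. Replicate 1 holds 237 cells and replicate 2 holds 254, on 3 plates each, and the labels do not say what sets the replicates apart, so a p-value measures only the spread between these 2 sets of plates.

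Hox genes encode homeodomain transcription factors whose order along the chromosome matches the order of their domains along the body axis. In the mouse hindbrain, which is divided into segments called rhombomeres, Hoxa2 reaches farther forward than any other Hox gene, Hoxb2 begins a segment behind it, and the group 3 genes Hoxa3 and Hoxb3 begin next to the otic vesicle. Hoxb1 stays high in a single rhombomere, which lies between the pair of rhombomeres that express Egr2 (also called Krox20), and Egr2 activates Hoxa2 and Hoxb2 in that pair. Outside the neural tube, Hoxa2 sets the identity of the neural crest mesenchyme of the second pharyngeal arch, and Egr2 is also switched on by growth factors together with other immediate early genes.

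Pbx and Meis proteins bind DNA beside Hox proteins, and the rhombomere domain of Hoxb1 is kept on, in the mouse, by Hox and Pbx proteins at repeated sites close to its start. The promoters of Hoxb1 and Hoxa2 are therefore shown, and both genes differed between classes and have an entry in the RefSeq promoter table. Hoxa3 also met both conditions, and its window, which is not printed, held 1 TGACAG match. Each is the 250 bases before the start used by that promoter table, on the gene's own strand in GRCm38.p6. For Hoxb1 the window ends at 96365757, and the gene coordinates given below begin at 96365752, so its last bases lie inside those coordinates. Capitals mark matches to TGATNNAT, a Pbx-Hox motif, or TGACAG, a Meis or Prep motif, on either strand.
Hoxb1, chr11:96365508-96365757, plus strand: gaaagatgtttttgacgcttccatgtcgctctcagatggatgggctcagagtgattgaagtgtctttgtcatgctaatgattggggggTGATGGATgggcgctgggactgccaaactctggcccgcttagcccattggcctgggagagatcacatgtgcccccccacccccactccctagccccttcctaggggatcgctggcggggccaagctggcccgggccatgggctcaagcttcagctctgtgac
Hoxa2, chr6:52164832-52165081, minus strand: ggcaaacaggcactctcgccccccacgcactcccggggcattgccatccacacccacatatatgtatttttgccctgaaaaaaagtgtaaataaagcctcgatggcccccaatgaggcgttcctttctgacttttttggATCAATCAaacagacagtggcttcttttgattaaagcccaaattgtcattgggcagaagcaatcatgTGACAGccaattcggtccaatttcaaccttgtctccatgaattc
In Hoxb1 the TGATNNAT match starts at base 89 of the window, counted from its 5′ end. In Hoxa2 the capitals at base 140 are a TGATNNAT match on the opposite strand, and those at base 207 are TGACAG on the strand shown. Over 32851 promoter windows of 300 bases (250 before and 50 after the start), 8.85% held TGATNNAT and 19.2% held TGACAG, so a match on its own is common. The Egr motifs GCGTGGGCG and GTGTGGGTG, found in 0.612% and 0.798% of windows, had no match in the windows of the 4 members in the table, which are Hoxb1, Hoxa2, Hoxa3 and Egr2.

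The sum of FPKM (fragments per length of transcript and depth of library) ran from 148501 to 439456 per cell, and 2552 to 6403 genes per cell (median 4513) reached 1 FPKM, the level at which a gene is called found here. The depth in reads is unknown, 74.9% of values were listed at 0, and a 0 in a single cell can be a transcript that was missed. Clustering on marker genes, none of them a member, gave 8 classes. They are neural tube progenitor-like (90 cells), cluster 5 (48), cluster 3 (60), mesenchyme-like (23), surface ectoderm-like (46), differentiating neuron-like (65), early neuroblast-like (19, of which 5 are in replicate 1) and otic epithelium-like (140). Cluster 5, led by Hes5, Fabp7, Dll1, Pax6 and Neurog2, kept its number because its markers fell between lists. Cluster 3 kept its number too, although the list of differentiating neuron markers led in it. The neuronal tubulin Tubb3 was in 98.3% of cluster 3 cells, but also in 52.9% of otic epithelium-like cells. Markers of epibranchial neurons were found in a mean of 49.7% of cluster 3 cells, against 12.9% of differentiating neuron-like cells. The names rest on these rebuilt clusters, and they are no deposited annotation. In the otic epithelium-like class 83.6% of cells held Sox10, a factor of otic epithelium and neural crest, and 59.3% held the otic matrix protein Oc90. In the neural tube progenitor-like class 88.9% held Sox2, a factor of neural progenitors, and 7.78% held Oc90. Sox2 was also in 59.3% of otic epithelium-like cells. Pax6 was in 58.9% of neural tube progenitor-like and 8.57% of otic epithelium-like cells, and Fabp7 in 94.4% and 24.3%. The median number of genes per cell lay between 4232 in cluster 5 and 5215 in mesenchyme-like cells, with 4293 in neural tube progenitor-like and 4762 in otic epithelium-like cells. At least 3 endothelial markers were found in 3 cells and at least 3 macrophage markers in 4 cells, and no call of a member changed without these cells.

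Wells shared transcripts. Transcripts found in few cells recurred between 19 pairs of plate rows, of which 17 were neighbours, in the same plate column, at a median of 5.0% of the level in the source well, and 337 cells had such a source well in the table. The members' shares and class differences were therefore recomputed after values at or below 12.9% of the source were set to 0 (corrected for transfer), and in the 154 cells with no source well. Counts of 2 genes in the same cell, correlations and the other gene lists are given as deposited unless said otherwise. The members' low values moved with this: of the otic epithelium-like cells, 13 of 15 held Hoxb2 where their source well had at least 50 FPKM of it, against 5 of 45 where the source well had under 1 FPKM. For Hoxa2 these counts were 9 of 13 against 2 of 61, and for Hoxb1 5 of 6 against 0 of 77.

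Hoxb1 (ENSMUSG00000018973, chr11:96365752-96368256, plus strand, GRCm38), the group 1 member, was found in 91 cells (18.5%). In neural tube progenitor-like cells it was in 36 of 90 (exact binomial 95% interval 29.8 to 50.9%), and in cluster 5 in 19 of 48 (39.6%, 25.8 to 54.7). In cluster 5 it was in 13 of 48 after the correction and in 1 of the 9 cells with no source well (0.281 to 48.2%). In otic epithelium-like cells it was in 7 of 140 (5.0%). All 7 otic epithelium-like cells lost Hoxb1 under the correction, which leaves 0 of 140 and allows a share of up to 2.14%, while neural tube progenitor-like cells kept it in 33 of 90. The cells that held Hoxb1 also held it at different levels: a median of 74.7 FPKM (2.46 to 297.0) in neural tube progenitor-like cells and 4.72 FPKM in otic epithelium-like cells. In mean log2(FPKM + 1) per cell, over replicates 1 and 2, neural tube progenitor-like cells had 2.1 and 2.5, cluster 5 had 2.32 and 1.71, cluster 3 had 1.06 and 1.54, and mesenchyme-like cells had 0.19 and 1.77. The other 4 classes lay between 0.0 and 0.51 in both replicates. Of the 4 mesenchyme-like cells with Hoxb1, 1 remained after the correction, and the mean over both replicates was then 0.3, against 0.98 as deposited. Neural tube progenitor-like cells and cluster 5 overlapped, and both stood above cluster 3 in both replicates.

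Hoxa2 (ENSMUSG00000014704, chr6:52162417-52164831, minus strand) was found in 169 cells (34.4%) and was the member with the highest single value, 372.0 FPKM in a cell of cluster 5. It was in 59 of 90 neural tube progenitor-like cells (65.6%, 54.8 to 75.3), 30 of 48 in cluster 5 (62.5%), 26 of 60 in cluster 3 (43.3%) and 14 of 23 mesenchyme-like cells (60.9%, 38.5 to 80.3). It was in 17 of 140 otic epithelium-like cells (7.24 to 18.7%), of which 4 remained after the correction, and in 0 of the 42 otic epithelium-like cells with no source well, which allows up to 7.14%. The median over all cells of a class was 38.4 FPKM in cluster 5, 37.2 in mesenchyme-like cells, 29.5 in neural tube progenitor-like cells and 0.0 in otic epithelium-like cells. In mean log2(FPKM + 1), over replicates 1 and 2, it stood at 3.4 and 4.06 in cluster 5, 3.19 and 4.26 in neural tube progenitor-like cells, and 2.1 and 2.32 in cluster 3. Those of surface ectoderm-like cells were 0.98 and 1.0, and the early neuroblast-like, differentiating neuron-like and otic epithelium-like means lay between 0.32 and 0.72. Mesenchyme-like cells did not repeat: their mean was 4.75 in replicate 1 and 1.48 in replicate 2, with Hoxa2 found in 12 of 15 cells and in 2 of 8. The mesenchyme-like cells that held it had a median of 56.8 FPKM (22.2 to 156.0), beside a median of 50.8 FPKM (4.61 to 258.0) in the neural tube progenitor-like cells that held it, and all 14 remained after the correction.

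Hoxb2 (ENSMUSG00000075588, chr11:96350525-96354012, plus strand) was the member found most often, in 229 cells (46.6%). It was in 69 of 90 neural tube progenitor-like cells (76.7%, 66.6 to 84.9), 36 of 48 in cluster 5 (75.0%), 46 of 60 in cluster 3 (76.7%), 11 of 23 mesenchyme-like cells (47.8%) and 23 of 46 surface ectoderm-like cells (34.9 to 65.1%). It was in 26 of 140 otic epithelium-like cells (18.6%), of which 11 remained after the correction, and in 14 of 65 differentiating neuron-like cells (21.5%), of which 5 remained. In surface ectoderm-like cells 21 of 23 remained. Mean log2(FPKM + 1), in replicates 1 and 2, was 3.46 and 4.92 in cluster 3, 4.16 and 4.01 in neural tube progenitor-like cells and 3.24 and 4.92 in cluster 5. Below these came surface ectoderm-like cells with 2.49 and 2.74, mesenchyme-like cells with 1.94 and 2.05, early neuroblast-like cells with 1.09 and 0.94, differentiating neuron-like cells with 0.37 and 0.87, and otic epithelium-like cells with 0.54 and 0.59. The first 3 overlapped, and surface ectoderm-like cells stood below all 3 and above mesenchyme-like cells in both replicates. The median over all cells of a class, those without Hoxb2 included, was 29.4 FPKM in cluster 3, 31.4 in neural tube progenitor-like cells, 32.0 in cluster 5, 1.01 in surface ectoderm-like cells and 0.0 in otic epithelium-like cells. The highest otic epithelium-like cell had 48.5 FPKM and the highest surface ectoderm-like cell 195.0 FPKM. The kit does not mark the strand of a transcript, and an antisense gene, Hoxb3os, overlaps Hoxb2 and part of Hoxb3, so reads of Hoxb2 and of this partner cannot be told apart.

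The group 3 genes were found less widely and at lower levels per length. Hoxa3 (ENSMUSG00000079560, chr6:52169062-52213336, minus strand) was found in 69 cells and Hoxb3 (ENSMUSG00000048763, chr11:96323326-96347930, plus strand) in 63. Hoxa3 was in 20 of 60 cells of cluster 3 (33.3%, 21.7 to 46.7), 15 of 48 of cluster 5 (31.2%), 19 of 90 neural tube progenitor-like cells (21.1%, 13.2 to 31.0) and 8 of 46 surface ectoderm-like cells (17.4%, 7.82 to 31.4), against 1 of 140 otic epithelium-like cells (0.714%, 0.0181 to 3.92). Hoxb3 was in 19 of 48 cells of cluster 5 (39.6%, 25.8 to 54.7), 15 of 60 of cluster 3 and 21 of 90 neural tube progenitor-like cells (23.3%, 15.1 to 33.4), against 1 of 140 otic epithelium-like cells. Outside the neural classes Hoxb3 was also found in 4 of 46 surface ectoderm-like cells (8.7%). It was in 0 of 23 mesenchyme-like cells, which allows a share of up to 13.0%. The correction moved these genes little, to 67 cells for Hoxa3 and 60 for Hoxb3. Mean log2(FPKM + 1) of Hoxa3 was 0.77 and 1.72 in cluster 3, 0.72 and 1.15 in cluster 5, 0.66 and 0.86 in neural tube progenitor-like cells and 0.54 and 0.67 in surface ectoderm-like cells (replicates 1 and 2), and at most 0.31 in the other classes. That of Hoxb3 was 1.03 and 1.46 in cluster 5, 0.82 and 0.48 in cluster 3, 0.42 and 0.64 in neural tube progenitor-like cells, 0.1 and 0.29 in surface ectoderm-like cells, and at most 0.12 in the other classes. For Hoxb3 cluster 5 stood above cluster 3 and the neural tube progenitor-like cells in both replicates, and for Hoxa3 the order cluster 3, cluster 5, neural tube progenitor-like and surface ectoderm-like cells was the same in both replicates, although the ranges of neighbouring classes overlapped. At 5 FPKM or more Hoxb3 was in 11 of 48 cells of cluster 5 (22.9%), 7 of 60 of cluster 3 (11.7%) and 6 of 90 neural tube progenitor-like cells (6.67%). Hoxa3's long annotated span holds other genes of both strands, Hoxa4 and Hoxa5 among them, so some of its reads may be shared.

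**Figure D1:**
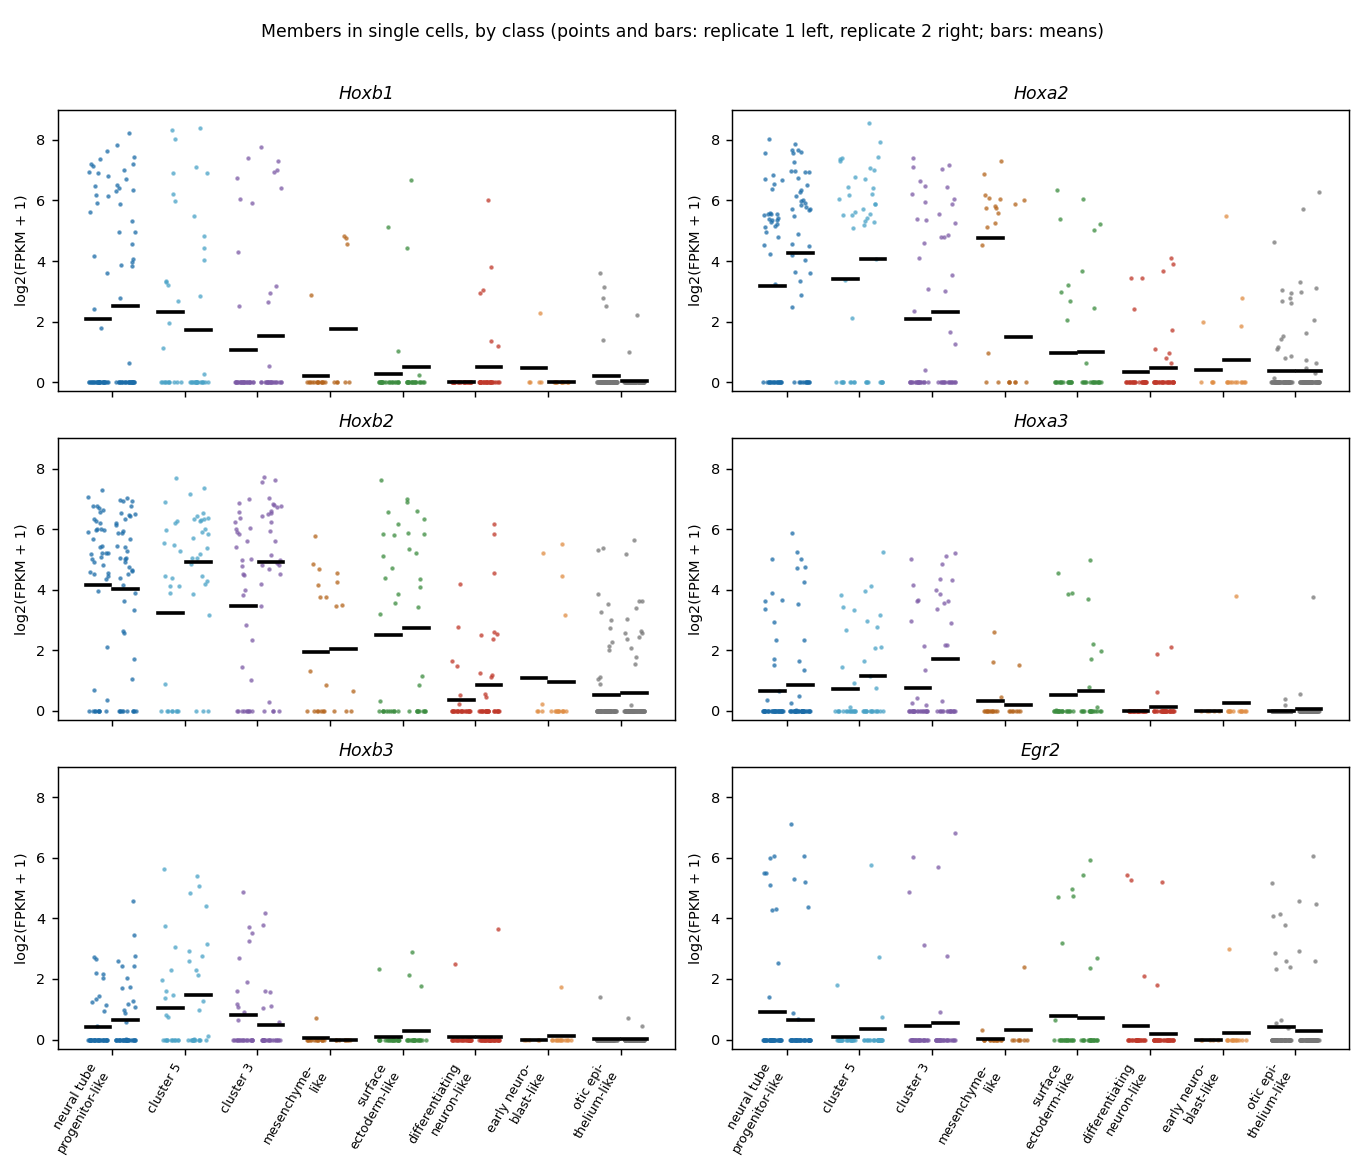
Level of each member in each cell, as log2(FPKM + 1) on the vertical axis, with the 8 classes on the horizontal axis. Each point is 1 cell, replicate 1 left and replicate 2 right, and the black bars are replicate means. For Hoxa2 the mesenchyme-like means lie at 4.75 and 1.48, and for Hoxb2 the 3 neural classes on the left all lie above 3.

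Egr2 (ENSMUSG00000037868, chr10:67535475-67542188, plus strand) was found in 51 cells, in each of the 8 classes. It was in 14 of 90 neural tube progenitor-like cells (15.6%, 8.77 to 24.7) and 8 of 46 surface ectoderm-like cells (17.4%, 7.82 to 31.4), against 13 of 140 otic epithelium-like cells (9.29%, 5.04 to 15.4). After the correction 14, 7 and 10 of these cells remained. Replicate means of log2(FPKM + 1) were 0.92 and 0.64 in neural tube progenitor-like cells, 0.79 and 0.71 in surface ectoderm-like cells, 0.45 and 0.56 in cluster 3 and 0.43 and 0.29 in otic epithelium-like cells, and those of the other classes lay between 0.0 and 0.44. The values in Egr2 cells had medians of 37.5 FPKM in neural tube progenitor-like, 25.4 in surface ectoderm-like and 12.9 in otic epithelium-like cells. Egr2 was found beside the immediate early gene Fos: over all cells, Fos was in 39 of 51 cells with Egr2 (76.5%) and in 204 of 440 without it (46.4%). In otic epithelium-like cells Fos was in 12 of 13 cells with Egr2 and 76 of 127 without, and in neural tube progenitor-like cells in 13 of 14 and 38 of 76. In cluster 5 it was in 1 of 3 and 15 of 45, and in early neuroblast-like cells in 0 of 1 and 9 of 18. Egr1, another immediate early gene, was in 30 of 51 cells with Egr2 (58.8%) and 135 of 440 without (30.7%). Cells are not replicates, and these shares were not tested. The replicate means of Egr2 overlap between neural tube progenitor-like and surface ectoderm-like cells, and both classes stand above cluster 3 in both replicates.

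**Figure D2:**
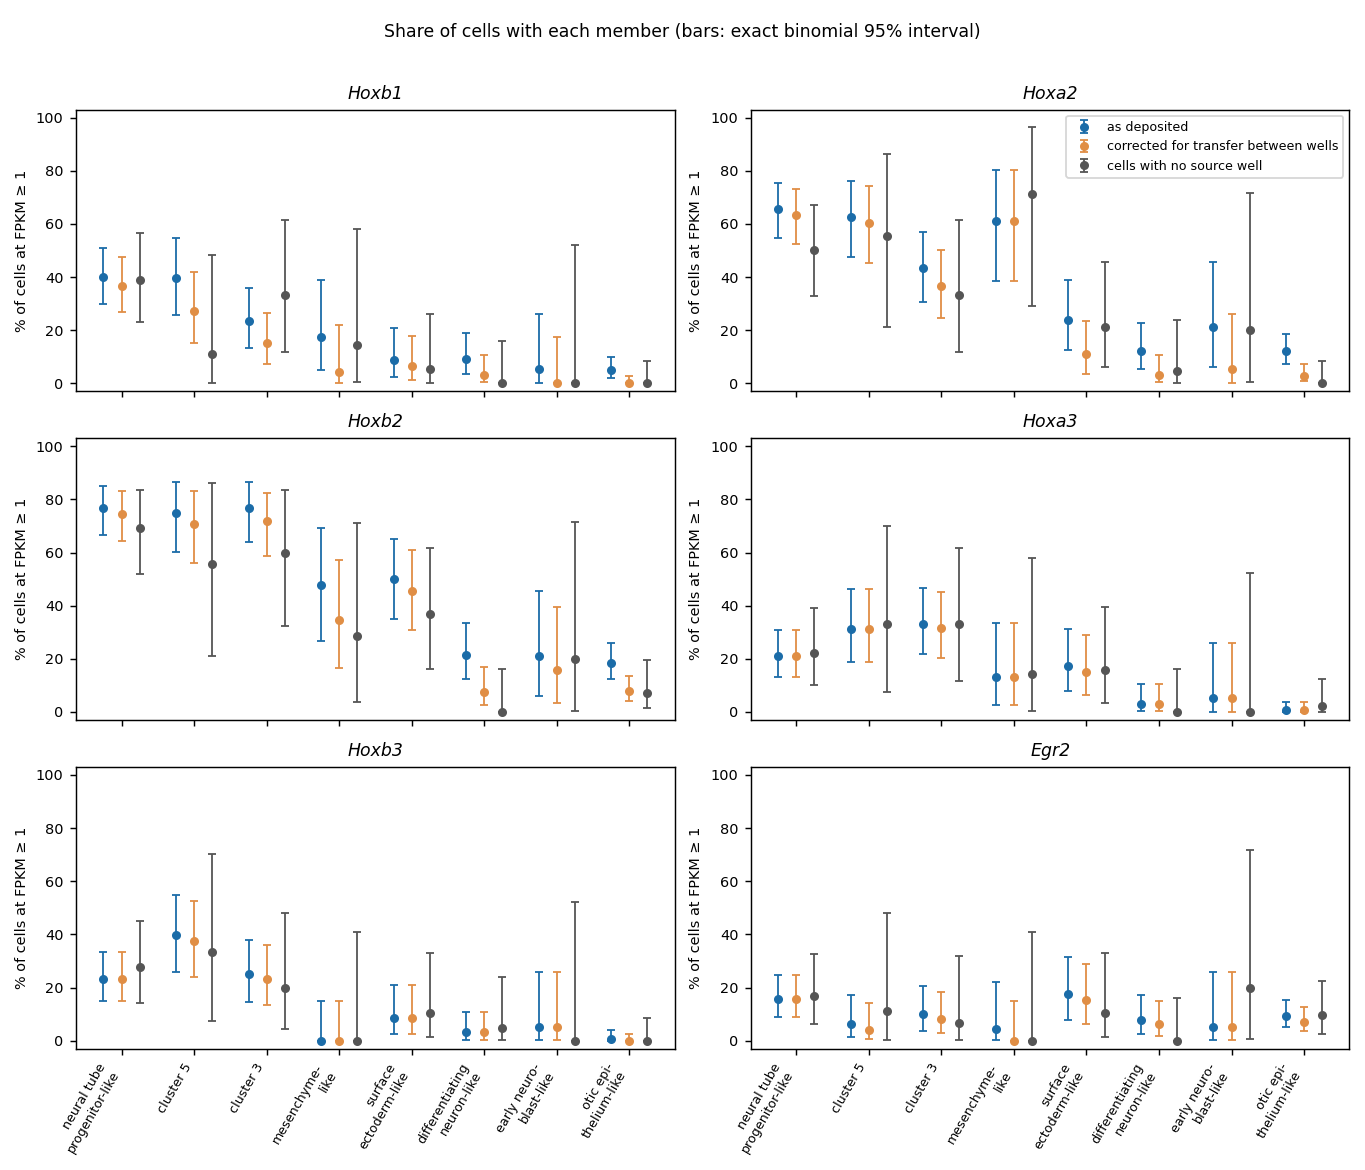
Share of cells with each member at 1 FPKM or more, in percent on the vertical axis, for the 8 classes. Points are shares and bars their exact binomial 95% intervals, for the values as deposited, after correction for transfer between wells, and in cells with no source well. The otic epithelium-like share of Hoxb1 is 5.0% as deposited and 0.0% after correction, while the neural tube progenitor-like share of Hoxa2 is 65.6% and 63.3%.

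To compare classes across replicates, the class and replicate means of all genes found in at least 5% of cells were fitted together with limma. All 6 members were among the 10190 genes tested, 78 member differences were fitted in 13 comparisons, and 18 passed a Benjamini-Hochberg adjusted p of 0.05 over all genes, each with the same sign in both replicates. In the 154 cells with no source well none of these 18 passed. Classes were made from other genes of these cells, so the test asks whether a class difference repeats in both replicates, not whether the classes exist. Between neural tube progenitor-like and otic epithelium-like cells, 3 of 6 members rose, against 1.28% of all genes tested. Hoxb2 was higher by 3.52 (SE 0.51, limma adjusted p = 0.000499), Hoxa2 by 3.35 (SE 0.73, adjusted p = 0.0121) and Hoxb1 by 2.18 (SE 0.42, adjusted p = 0.00476), all on the log2(FPKM + 1) scale, and each was higher on 6 of 6 plates. Hoxa3 (0.73, SE 0.24, adjusted p = 0.117), Hoxb3 (0.51, SE 0.19, adjusted p = 0.192) and Egr2 (0.43, SE 0.2, adjusted p = 0.338) did not pass in limma, and the median over all genes tested was -0.17. Hoxa3 and Hoxb3 were also higher on 6 of 6 plates, and Egr2 on 5. These 3 passed when each mean was weighted by its number of cells (limma adjusted p = 0.00219, 0.00711 and 0.0265). In the cells with no source well, 36 and 42 of these classes, the differences were 3.5, 2.94 and 2.26 for Hoxb2, Hoxa2 and Hoxb1 and did not pass (limma adjusted p = 0.223, 1.0 and 1.0).

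Cluster 5 minus otic epithelium-like cells had 5 of 6 members higher, against 1.49% of all genes tested. The differences were 3.51 for Hoxb2 (SE 0.51, limma adjusted p = 0.000426), 3.35 for Hoxa2 (SE 0.73, adjusted p = 0.00928), 1.89 for Hoxb1 (SE 0.42, adjusted p = 0.0105), 1.23 for Hoxb3 (SE 0.19, adjusted p = 0.000779) and 0.9 for Hoxa3 (SE 0.24, adjusted p = 0.0323), and each was higher on 6 of 6 plates. Hoxa3 did not pass without the replicate block (limma adjusted p = 0.0524). In the cells with no source well the Hoxb1 difference was 1.07 (limma adjusted p = 0.846). Egr2 differed by -0.14 (SE 0.2, limma adjusted p = 0.797). Set directly against neural tube progenitor-like cells, a comparison added after seeing the data, cluster 5 had no member past the threshold in limma, where 0.294% of genes were called. The nearest was Hoxb3, with a difference of 0.72 (SE 0.19, limma adjusted p = 0.227), which was higher on 6 of 6 plates and passed with means weighted by cell numbers (limma adjusted p = 0.035). Egr2 differed by -0.57 (SE 0.2, limma adjusted p = 0.472) and was lower on 6 of 6 plates.

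Cluster 3 minus otic epithelium-like cells had 3 of 6 members higher, against 4.81% of all genes tested. Hoxb2 was higher by 3.62 (SE 0.51, limma adjusted p = 0.00019), Hoxa3 by 1.21 (SE 0.24, adjusted p = 0.00284) and Hoxb3 by 0.63 (SE 0.19, adjusted p = 0.0405), while Hoxa2 (1.83, adjusted p = 0.117) and Hoxb1 (1.18, adjusted p = 0.077) did not pass. Both of these passed when the mean FPKM was taken before the logarithm (Hoxa2 adjusted p = 0.00416, Hoxb1 adjusted p = 0.0075, both in limma). Hoxb2, Hoxa2 and Hoxb1 were higher on 6 of 6 plates, and Hoxa3 and Hoxb3 on 5. The Tubb3-positive cells of cluster 3 also differed from the differentiating neuron-like cells, of which 90.8% held Pou4f1, a factor of sensory ganglion neurons (23.3% of cluster 3): Hoxb2 was higher by 3.57 (SE 0.51, limma adjusted p = 0.00131) and Hoxa3 by 1.18 (SE 0.24, adjusted p = 0.0154). That is 2 of 6 members, against 0.697% of all genes tested, and Hoxb2 was higher on 6 of 6 plates and Hoxa3 on 5. Hoxa2 (1.82, SE 0.73, limma adjusted p = 0.314) and Hoxb1 (1.05, SE 0.42, adjusted p = 0.313) did not pass, and both were higher on 6 of 6 plates. Hoxa2 passed with the mean FPKM taken before the logarithm (limma adjusted p = 0.0122) and with weighted means (adjusted p = 0.0294). The differences of Hoxb3 and Egr2 were 0.55 (SE 0.19, limma adjusted p = 0.209) and 0.19 (SE 0.2, adjusted p = 0.845). Hoxb2 was found in 46 of 60 cells of cluster 3 and in 14 of 65 differentiating neuron-like cells.

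Among the otic epithelium-like, early neuroblast-like and differentiating neuron-like classes no member passed the threshold. The counts were 0 of 6 for early neuroblast-like minus otic epithelium-like cells, where 4.7% of genes were called in either direction, 0 of 6 for differentiating neuron-like minus early neuroblast-like cells (6.74%), and 0 of 6 for differentiating neuron-like minus otic epithelium-like cells (9.02%), all in limma. In the last of these the largest difference was 0.13, for Hoxb1 (SE 0.42). Early neuroblast-like cells numbered only 5 in replicate 1, and the largest of their differences was 0.45, for Hoxb2 (SE 0.51, limma adjusted p = 0.703). None of the 18 member differences in these 3 comparisons had an unadjusted p under 0.05 in limma.

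Mesenchyme-like minus otic epithelium-like cells had 1 of 6 members higher, against 1.93% of all genes tested. This was Hoxa2, by 2.74 (SE 0.73, limma adjusted p = 0.0406), and the difference was 4.38 in replicate 1 and 1.11 in replicate 2, so its size rests on replicate 1. It did not pass with genes found in at least 1% of cells (limma adjusted p = 0.0691) or with a pseudocount of 0.1 FPKM (adjusted p = 0.0534). The other differences were 1.43 for Hoxb2 (limma adjusted p = 0.146), 0.86 for Hoxb1 (adjusted p = 0.323), 0.22 for Hoxa3, 0.01 for Hoxb3 and -0.2 for Egr2, the last 3 with an adjusted p of at least 0.7. Surface ectoderm-like minus otic epithelium-like cells also had 1 of 6 higher, against 1.49% of genes: Hoxb2, by 2.05 (SE 0.51, limma adjusted p = 0.0385), with 1.95 and 2.15 in the replicates. It did not pass without the replicate block (limma adjusted p = 0.0562) or after the correction for transfer, where the difference was 2.19 (limma adjusted p = 0.0569). The other differences were 0.62 for Hoxa2 (limma adjusted p = 0.846), 0.57 for Hoxa3 (adjusted p = 0.312), 0.4 for Egr2 (adjusted p = 0.44), 0.26 for Hoxb1 (adjusted p = 0.903) and 0.18 for Hoxb3 (adjusted p = 0.825).

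Against neural tube progenitor-like cells, in comparisons added after seeing the data that share those cells' values, members were lower in surface ectoderm-like and mesenchyme-like cells. Surface ectoderm-like cells had 2 of 6 members lower, against 2.19% of genes: Hoxa2 fell by 2.73 (SE 0.73, limma adjusted p = 0.0322) and Hoxb1 fell by 1.92 (SE 0.42, adjusted p = 0.00884). With genes found in at least 1% of cells, Hoxa2 did not pass (limma adjusted p = 0.058). Mesenchyme-like cells had 1 of 6 lower, against 1.53% of genes: Hoxb2 fell by 2.09 (SE 0.51, limma adjusted p = 0.0243), while Hoxa2 differed by -0.61 (SE 0.73, adjusted p = 0.701). After the correction Hoxb1 also fell, by 1.89 (limma adjusted p = 0.000259), and Egr2 fell by 0.78 (adjusted p = 0.0269). In cluster 3, 0 of 6 members passed as deposited, where 9.82% of genes were called, and the differences of Hoxb1 and Hoxa2 were -0.99 and -1.51 (limma adjusted p = 0.172 and 0.249). After the correction Hoxb1 fell by 1.16 (limma adjusted p = 0.00805).

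**Figure D3:**
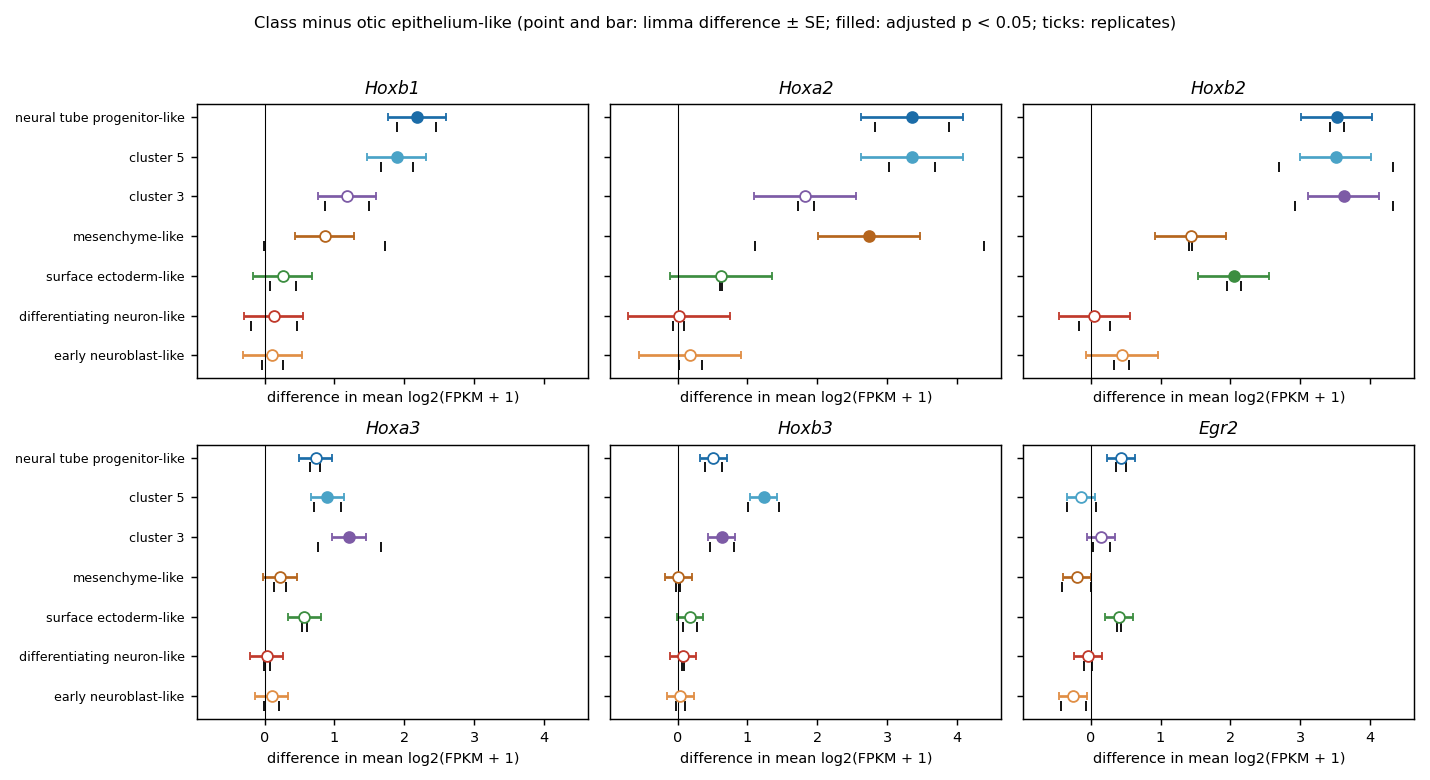
Difference of each class from otic epithelium-like cells, in mean log2(FPKM + 1) on the horizontal axis, for each member. Points and bars are limma differences with their SE, filled points have an adjusted p below 0.05, and the short ticks are the 2 replicates. Hoxb2 is filled for 4 classes, and the ticks of Hoxa2 in mesenchyme-like cells lie at 4.38 and 1.11.

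Members were also counted together within a cell. Of 36 neural tube progenitor-like cells with Hoxb1, 33 also held Hoxb2 (91.7%, 77.5 to 98.2), against 36 of 54 without Hoxb1 (66.7%). All 19 cells of cluster 5 with Hoxb3 held Hoxb2, against 17 of 29 without Hoxb3. Hoxb1, Hoxb2 and Hoxb3 lie within the same cluster on chromosome 11, and cells are not replicates, so these shares carry counting error only and no test. Hoxa3 and Hoxb3, the same group in different clusters, met in 8 of 19 neural tube progenitor-like cells with Hoxa3 (42.1%, 20.3 to 66.5), against 13 of 71 without it (18.3%), and in 10 of 15 cells of cluster 5 with Hoxa3, against 9 of 33 without. For Hoxb1 and Hoxa3, 6 of 36 neural tube progenitor-like cells with Hoxb1 held Hoxa3 (16.7%, 6.37 to 32.8), against 13 of 54 without it (24.1%).

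Egr2 was also set beside Hoxb2, Hoxa2, Hoxb1 and Hoxa3, cell by cell. Of 14 neural tube progenitor-like cells with Egr2, 13 held Hoxb2 (92.9%, 66.1 to 99.8) and 10 held Hoxa2, against 56 and 49 of 76 without Egr2. In surface ectoderm-like cells 3 of 8 cells with Egr2 held Hoxb2 (37.5%, 8.52 to 75.5), and in otic epithelium-like cells 3 of 13 did (23.1%, 5.04 to 53.8), against 20 of 38 and 23 of 127 without Egr2. Hoxb1 was in 6 of 14 neural tube progenitor-like cells with Egr2 (42.9%) and 30 of 76 without (39.5%), and Hoxa3 in 2 of 14 and 17 of 76. A difference between classes in these shares was not tested.

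Counted per cell, neural tube progenitor-like cells held a median of 2 members, with none in 8 of 90 cells and 3 or more in 44. Otic epithelium-like cells held none in 94 of 140, and in 118 after the correction. Over the 138 neural tube progenitor-like and cluster 5 cells, after the correction, the most frequent sets were Hoxa2 with Hoxb2 (20 cells), none (16), Hoxb1 with Hoxa2 and Hoxb2 (14), and Hoxa2 with Hoxb2, Hoxa3 and Hoxb3 (10). These counts were not compared with those that the members' own shares would give. Across the 90 neural tube progenitor-like cells, as a description, Pearson's r of log2(FPKM + 1) was 0.39 between Hoxb1 and Hoxb2, 0.25 between Hoxa2 and Hoxb2, 0.25 between Hoxa3 and Hoxb3 and -0.16 between Hoxb1 and Hoxa3. These points share libraries and their depth.

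**Figure D4:**
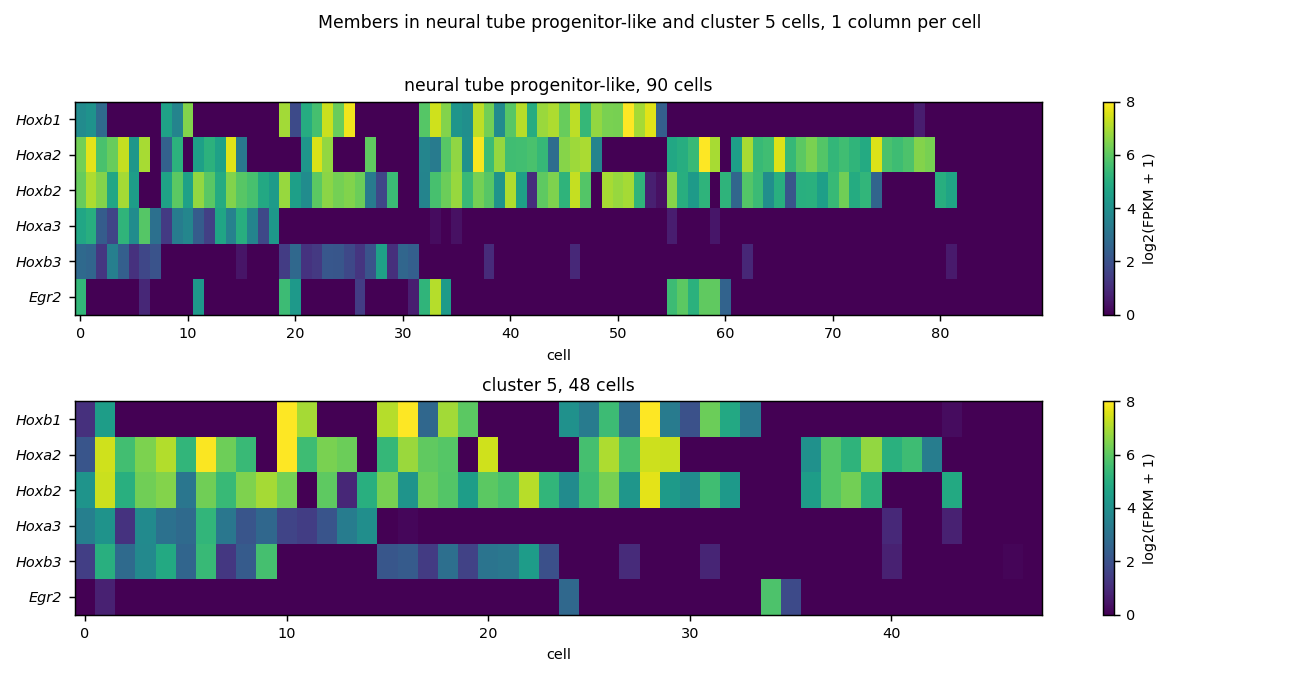
Members (rows) in each of the 90 neural tube progenitor-like cells and the 48 cells of cluster 5 (columns), coloured by log2(FPKM + 1), with columns sorted by which members were found. All 19 Hoxb3 cells of cluster 5 also show Hoxb2, as do 33 of the 36 Hoxb1 cells of the upper panel, and the 14 Egr2 cells of the upper panel fall in several sets.

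Other Hox genes were rarely found. Rows were present for 39 Hox genes, 34 of them no members. Of 24 genes of paralog groups 6 to 13, 22 were found in no cell, which allows a share of up to 0.611% each, and Hoxc6 and Hoxc13 were found in 1 cell each. Of 10 further genes of groups 1 to 5, 8 were found, and none reached 5% of cells, so that none was tested beside the members. The most frequent, named here after its values were seen, was Hoxd3 with 21 cells. It was in 11 of 90 neural tube progenitor-like cells, 5 of 48 of cluster 5 and 3 of 60 of cluster 3, against 1 of 140 otic epithelium-like cells.

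**Figure D5:**
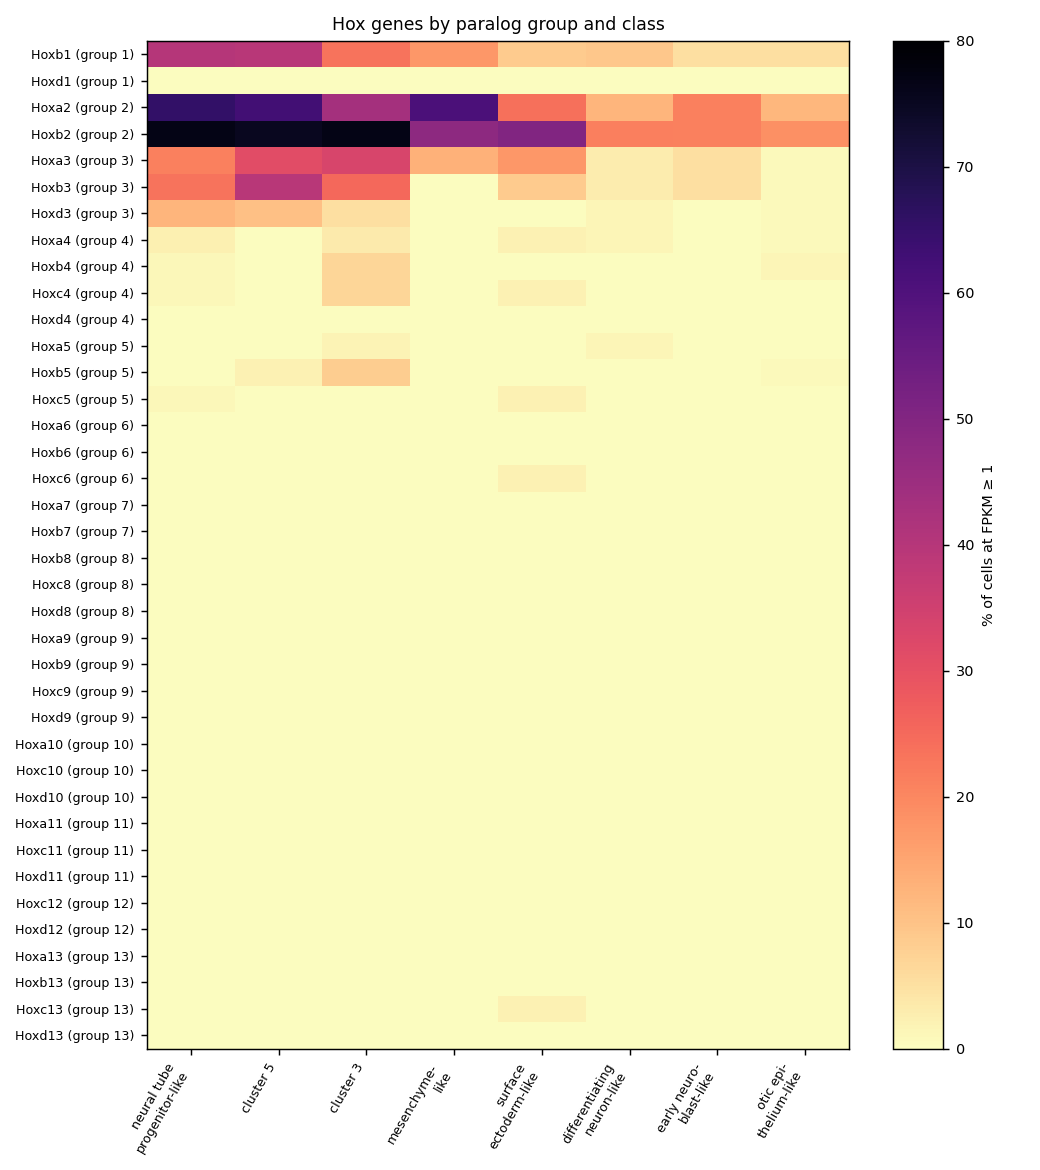
Share of cells at 1 FPKM or more, in percent by colour, for Hox genes ordered by paralog group (rows) in 8 classes (columns). The 5 Hox members lie in groups 1 to 3, and nearly all rows from group 6 on are at 0.

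Hox proteins act with cofactors of the TALE homeodomain families Pbx, Meis and Pknox. All 9 listed cofactors were tested, and between neural tube progenitor-like and otic epithelium-like cells 1 of 9 rose: Meis1, by 3.88 (SE 0.46, limma adjusted p = 8.62e-05), with means of 5.57 and 6.14 against 2.22 and 1.71. The median difference of the 9 was 0.4, beside -0.17 over all genes tested, of which 1.28% rose. Meis1 also rose in cluster 5 (3.3), surface ectoderm-like (3.22), mesenchyme-like (3.0) and cluster 3 (2.11) cells against otic epithelium-like cells, and Meis3 in cluster 3 (3.15), differentiating neuron-like cells (2.62) and cluster 5 (2.4), all with a limma adjusted p under 0.05. Pbx2 fell by 0.8 in cluster 3 (SE 0.25, limma adjusted p = 0.0443). In differentiating neuron-like cells, where no Hox member passed, Meis3 was the 1 cofactor of 9 that did, against 9.02% of all genes tested in either direction. Meis2 rose in mesenchyme-like against otic epithelium-like cells (2.72, SE 0.54, limma adjusted p = 0.00593).

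Retinoic acid sets the limits of Hox domains. Of 14 tested genes of its synthesis, breakdown and reception, 2 rose in neural tube progenitor-like against otic epithelium-like cells and 0 fell. Crabp1, a retinoic acid binding protein, rose by 3.86 (SE 0.7, limma adjusted p = 0.00326), and Cyp26b1, an enzyme that breaks retinoic acid down, by 1.4 (SE 0.29, adjusted p = 0.00935). The list's median difference was -0.15, and 1.28% of all genes tested rose. In mesenchyme-like against otic epithelium-like cells 3 rose, Cyp26a1 among them by 3.35 (SE 0.3, limma adjusted p = 6.34e-06), and 1 fell, the receptor Rxrg, by 0.9 (SE 0.2, adjusted p = 0.0132), with a median of 0.05 beside 0.06 over all genes. Of all genes tested, 1.93% rose there, and the share that fell is not given.

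Of 10 tested rhombomere patterning factors, 3 rose and 2 fell in neural tube progenitor-like against otic epithelium-like cells. Of all genes tested, 1.28% rose in this comparison and 1.93% rose in mesenchyme-like against otic epithelium-like cells. The shares of all genes that fell are not given, so the counts of falling genes have no background beside them. The nuclear receptors Nr2f1 and Nr2f2 rose by 2.94 (SE 0.45, limma adjusted p = 0.0008) and 2.56 (SE 0.46, adjusted p = 0.00287), Irx2 rose by 1.96, and Gbx2, a factor of the anterior hindbrain that is also used by the otic vesicle, fell by 1.31 (SE 0.3, adjusted p = 0.0171). The list's median was 0.72. In mesenchyme-like against otic epithelium-like cells 2 of the 10 rose, Nr2f1 among them by 3.34 (SE 0.45, limma adjusted p = 0.000231), and 3 fell, Gbx2 among them by 2.54, with a median of -0.12. Of 15 boundary signals 2 rose, Plxna2, a semaphorin receptor chain, by 2.13 (SE 0.4, limma adjusted p = 0.00427) and the ephrin Efnb1 by 1.6, and 1 fell, the guidance cue Sema3a, by 2.44 (SE 0.46, adjusted p = 0.00428), with a median of -0.06. Of 6 tested dorsoventral genes that were not markers, 1 rose, the dorsal factor Msx3 (3.27, SE 0.39, limma adjusted p = 8.62e-05), with a median of 0.68. Among 4 tested pharyngeal arch genes that were not markers, 2 rose in mesenchyme-like against otic epithelium-like cells, Dlx2 (3.32, SE 0.47, adjusted p = 0.000345) and Dlx1 (1.77, SE 0.16, adjusted p = 6.34e-06, limma for both), and 1 fell, Msx1, by 1.83. The list's median was 0.56.

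The genes most like a member over all cells, by Pearson's r of log2(FPKM + 1) and as a description of cells that share classes and libraries, overlapped between members. Fez1, a protein of axon outgrowth, came first for Hoxb2 (0.54), Hoxa2 (0.52) and Hoxb1 (0.42). Next came Crabp1 (0.48) and Meis1 (0.47) for Hoxb2, Pou3f2 (0.5) and Rfx4 (0.45) for Hoxa2, and Fabp7 (0.42) and Rfx4 (0.39) for Hoxb1. For Hoxa3 they were Crabp1 (0.29), Cyp26b1 (0.28) and Nuak2 (0.27), and for Hoxb3 Prmt8 (0.36), Pou3f2 (0.3) and Frmd4b (0.28). For Egr2 they were Mafk (0.25), Fos (0.25) and Syn3 (0.22).

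Within the 90 neural tube progenitor-like cells other genes led. For Hoxb1 they were Mecom (0.48, found in 21 of the 36 Hoxb1 cells), Angpt1 (0.39) and Gna13 (0.39), for Hoxa2 Fdft1 (0.4), Hist1h2af (0.39) and Pou3f2 (0.38), and for Hoxb2 Pigx (0.48), Rimklb (0.43) and Ftsj1 (0.4). The leading genes of Hoxa3 (Zadh2, Pde10a, Ebf2), Hoxb3 (Ramp2, Synpo, Zadh2) and Egr2 (Gpr85, D11Wsu47e, Gpc2) were found in 1 to 18 cells, and correlations over so few cells with a transcript are no finding.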

How the data were processed

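Each sample is 1 tdTomato-positive cell. Per the labels' protocols, cDNA was made with the SMARTer V3 kit and libraries with Nextera XT. The submitters' processing notes name Cufflinks, TopHat, Bowtie2, Bowtie, SAMtools, cutadapt and FastQC, without versions, and the build mm10. The deposited values are log2(FPKM + 1), made by the authors: FPKM is in the table's name, and the log2 scale was read from the values. The table holds no read counts, so no count test was run and depth in reads is unknown.

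Symbols and coordinates come from GENCODE for GRCm38, the assembly that mm10 names, and 19494 of 19659 rows had an unrepeated ID and a symbol of their own. No cell fell under a minimum of 2000 genes, and no doublet caller was run on these singly sorted cells. Cells were clustered on 69 markers (scanpy 1.11.5, 15 principal components, 15 neighbours, Leiden resolution 1.0), and 9 clusters gave 8 classes. Class and replicate means of log2(FPKM + 1) (16 means) were fitted with limma 3.58.1 (trend, class and replicate as terms, two-sided), for 10190 genes at 1 FPKM or more in at least 5% of cells, markers left out. Classes of a replicate share its plates, per the titles, so the replicate is a block. The step was tested on simulated data. The simulation drew class means directly, so it covers neither missed transcripts in single cells nor transfer between wells. Shares have exact binomial 95% intervals, and a share of 0 is given its limit of 3 cells of the total, both for counting error only.

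The members, gene lists and comparisons were chosen with earlier results of these data known. The rule for named genes took the 6 members, at most the 4 genes of largest difference past the threshold in each list, and the 3 genes most like each member. In some comparisons members that did not pass are given by count or by their largest difference, and further Hox genes are marked as chosen after their values were seen. Results that need some other genes are not reported here.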

Additional observations from a re-analysis of the deposited data

How the results depend on the processing

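Of 18 member differences past the threshold, 18 remained with the mean FPKM taken before the logarithm, upper-quartile scaling, means weighted by cells, and without cells that held at least 3 endothelial or macrophage markers (added after seeing the data), and 17 with a pseudocount of 0.1 FPKM or the correction for transfer. No call changed sign under any alternative run. Without the replicate block 16 remained: Hoxb2 in surface ectoderm-like minus otic epithelium-like cells (limma adjusted p = 0.0562, so 0 members) and Hoxa3 in cluster 5 minus otic epithelium-like cells (adjusted p = 0.0524) were lost. In the 154 cells with no source well 0 of 18 remained, so that the count was 0 in every comparison, from classes as small as 5 early neuroblast-like cells and 7 mesenchyme-like cells, whose mean in 1 replicate each is that of 1 cell. The positive ones among these 18 differences then lay from 0.63 to 3.5, and the negative ones from -3.08 to -1.81. Neural tube progenitor-like minus otic epithelium-like cells had 6 members past the threshold with weighted means and 5 at Leiden resolution 0.5. Mesenchyme-like minus otic epithelium-like cells had 0 with a pseudocount of 0.1 FPKM or genes in at least 1% of cells, and 2 at resolution 0.5. Surface ectoderm-like minus otic epithelium-like cells had 0 after the correction. Cluster 3 minus otic epithelium-like cells had 5 with the mean FPKM and with weighted means. Against neural tube progenitor-like cells, cluster 5 had 1 with weighted means. Cluster 3 had 1 after the correction, 2 with weighted means and 1 at resolution 0.5. Mesenchyme-like cells had 2 with the mean FPKM, 3 after the correction, 2 with weighted means and 3 at resolution 0.5, and surface ectoderm-like cells had 1 with genes in at least 1% of cells. The cause of these moves was not tested. Leaving out a replicate gives differences with no test: Hoxa2 in mesenchyme-like minus otic epithelium-like cells lay between 1.11 and 4.38. In neural tube progenitor-like cells the Hoxa2 share was 18 of 36 cells (50%) with no source well, and the Hoxb3 share was 6.67% at 5 FPKM or more.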

Other observations

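Some Hox genes that are no members were found in more cells of cluster 3 than of any other class, as values chosen after they were seen. Hoxb5, of group 5, was in 5 of 60 cells of cluster 3 and 1 of 140 otic epithelium-like cells. In all it was found in 7 cells, of which 4 remained after the correction for transfer. With genes found in at least 1% of cells, Hoxb5 was higher in cluster 3 by 0.5 than in otic epithelium-like cells (SE 0.08, limma adjusted p = 0.00148). Against differentiating neuron-like and neural tube progenitor-like cells it was higher by 0.51 each (SE 0.08, limma adjusted p = 0.00637 and 0.00189). These differences rest on few cells and on values as deposited. Hoxb4 and Hoxc4 were each in 4 of 60 cells of cluster 3 (6.67%), from 7 and 6 cells in all. Hoxb4 was also in 2 of 140 otic epithelium-like cells.

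Genes of the brain in front of the hindbrain were rare beside the members. In neural tube progenitor-like cells, Otx2, a forebrain and midbrain factor, was in 12 of 90 cells and in 8 after the correction, 5 of which also held a member. Otx1, En1, En2, Six3, Emx1 and Pax5 were found in 0 of 90 cells, which allows a share of up to 3.33% each.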
